A study of Mus musculus with 25 samples.

Results

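A set of 5 genes of the globin family and the red cell was followed across the 6 groups of the study, out of 17097 genes with a named probe set. They are Hba-a1 (an adult alpha globin chain), Hbb-b2 (an adult beta globin chain), Alas2 (the erythroid form of the first enzyme of heme synthesis), Slc4a1 (the anion exchanger known as band 3) and Ngb (neuroglobin). A probe set was taken where the probe annotation gives it a single gene symbol, and where a gene had several, the brightest on average over the 25 arrays stood for it. Of the 5, 4 passed the limit on dim genes, a mean log2 signal of 4.603, and entered the tests over 11968 genes. Alas2, with a mean of 3.73, did not, and its tests come from a fit with no limit.

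The arrays measured polysomal RNA from mouse kidney podocytes, the epithelial cells that wrap the glomerular capillaries. All mice were of a mixed C57/129sv background and carried the Col1a1-eGFPL10a transgene, a green fluorescent protein fused to ribosomal protein L10a behind a collagen 1α1 promoter and enhancer. The fusion allows ribosomes, and the RNA on them, to be pulled from whole tissue (translating ribosome affinity purification, TRAP). WT mice carried the transgene alone, and KI mice carried in addition the Actn4tm1.1Plk knock-in, a point mutation in the actin crosslinker alpha-actinin-4. Each genotype was sampled at 2, 5 and 44 weeks, labelled P14, P35 and P300, giving 5 arrays for WT at 5 weeks and 4 for each of the other groups. Not given in the sources used here are the sex of the mice, whether KI mice carried 1 or 2 mutant alleles and whether each array was a separate animal. The p-values therefore describe only how these samples scatter, which may be technical. Actn4 itself has no named probe set in the annotation and was not analysed here.

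Of 18 podocyte markers listed, 15 had a named probe set, all 15 passed the limit, and their median level was 11.70 on the log2 scale. Markers of other kidney cells were present too: the median level was 10.16 for proximal tubule, 7.56 for mesangium and smooth muscle, 6.89 for endothelium and 5.92 for intercalated cells. On the second principal component, which held 18.3% of the variance, WT arrays 7, 8 and 9 of 5 weeks lay lowest, at −52.6, −28.8 and −44.0. The members' differences that involve WT at 5 weeks, and the list counts, were also computed without them. That leaves only arrays 6 and 10 for WT at 5 weeks, so calls are lost more easily in these fits.

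Adult hemoglobin is built from alpha and beta chains, each holding a heme, and is made in red cell precursors, which shed their nuclei and keep globin RNA for a time as reticulocytes. Alas2 supplies heme to those precursors, and band 3 anchors the red cell membrane to its skeleton while exchanging chloride for bicarbonate. A shorter form of band 3, from the same gene, is made in the kidney by acid-secreting intercalated cells of the collecting duct. Neuroglobin is a globin best known from neurons and the retina and is not a red cell protein.

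The promoter windows of the pair of members with an entry in the RefSeq promoter table (2 of 5) are shown because Hba-a1 and Alas2 moved together in these arrays. Each line gives the 250 bases before the gene's start on its own strand, 5′ to 3′, build GRCm38.p6. Capitals mark matches to 3 motifs. These are the GATA words (A or T, then GATA, then A or G, on either strand), the CACCC-type word CCNCNCCC on either strand, and TATAA on the gene's strand.
Hba-a1, chr11:32283422-32283671, plus strand: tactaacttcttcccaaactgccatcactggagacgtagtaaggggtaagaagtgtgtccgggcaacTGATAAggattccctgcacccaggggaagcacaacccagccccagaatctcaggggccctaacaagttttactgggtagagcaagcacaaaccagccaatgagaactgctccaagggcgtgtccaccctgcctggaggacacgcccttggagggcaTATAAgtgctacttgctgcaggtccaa
Alas2, chrX:150547167-150547416, plus strand: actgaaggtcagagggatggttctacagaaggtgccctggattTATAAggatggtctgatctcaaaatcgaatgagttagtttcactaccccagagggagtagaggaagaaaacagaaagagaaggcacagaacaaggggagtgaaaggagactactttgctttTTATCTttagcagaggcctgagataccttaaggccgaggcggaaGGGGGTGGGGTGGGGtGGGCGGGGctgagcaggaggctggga
Both windows hold 1 GATA word and 1 TATAA, but the TATAA begins at base −27 from the start in Hba-a1 and at −207 in Alas2. In Alas2 the GATA word lies on the minus strand, and 4 CCNCNCCC matches on that strand, some of them overlapping, lie nearer the start. Among all 32841 promoters of the same length, 26.5% hold a GATA word, 45.9% hold CCNCNCCC and 16% hold TATAA. These are matches of letters and not measured binding.

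The adult globins were highest at 2 weeks and fell by 5 weeks in WT. For Hba-a1 the 4 WT arrays of 2 weeks read 10.88, 10.51, 9.42 and 9.52 on the log2 scale, and the 4 KI arrays of that age read 8.67, 10.95, 10.74 and 9.74. WT at 5 weeks read 8.58, 6.17, 6.82, 6.67 and 6.40, and KI at 5 weeks read 8.58, 8.18, 7.95 and 7.67. At 44 weeks WT read 7.36, 6.93, 6.75 and 6.91 and KI read 6.96, 8.85, 7.01 and 6.00. Every array of 2 weeks was above every WT array of 5 or 44 weeks, while the highest KI array of 44 weeks (8.85) lay above the lowest KI array of 2 weeks (8.67).

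The group means of Hba-a1 were 10.08 ± 0.73 (SD, n = 4) in WT and 10.02 ± 1.04 (SD, n = 4) in KI at 2 weeks. The 5-week means were 6.93 ± 0.96 (SD, n = 5) and 8.09 ± 0.39 (SD, n = 4), and the 44-week means 6.99 ± 0.26 and 7.20 ± 1.19 (SD, n = 4 each). In WT, Hba-a1 fell by 3.15 ± 0.53 (standard error) from 2 to 5 weeks, 8.9-fold (limma, adjusted p = 0.00017). In KI it fell by 1.93 ± 0.55 over the same interval (limma, adjusted p = 0.024), a call kept in 21 of 25 fits that each left out 1 array. It was lost without KI array 20 (−1.62), 21 (−1.69), 25 (−1.88) or 26 (−1.79), with adjusted p from 0.059 to 0.089. From 5 to 44 weeks the differences were 0.06 ± 0.53 in WT (limma, adjusted p = 0.95) and −0.89 ± 0.55 in KI (limma, adjusted p = 0.28), where 20.1% and 16.8% of all genes were called. Of all genes tested, 33.9% were called in WT between 2 and 5 weeks and 13.7% in KI, the falls alone being 21.7% and 8.29%. In WT 9.32% of genes were lower with no overlap between the arrays of the 2 ages, and 7.42% higher. The drop of Hba-a1 in WT ranked 16th in size among all genes.

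Hbb-b2 was also highest at 2 weeks, at a higher signal than Hba-a1. The WT arrays of 2 weeks read 11.72, 11.60, 10.40 and 11.10, and the KI arrays read 9.76, 11.89, 11.75 and 11.07. At 5 weeks WT read 9.81, 6.77, 6.66, 6.56 and 7.07, and KI read 9.77, 9.23, 9.04 and 8.71. At 44 weeks WT read 8.40, 7.95, 8.45 and 8.04, a narrow range, whereas KI read 8.60, 10.60, 7.76 and 7.30. One WT array of 5 weeks, array 6, was above all 4 KI arrays of that age, and the other 4 WT arrays were below them all.

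In WT, Hbb-b2 fell from 11.20 ± 0.60 (SD, n = 4) to 7.37 ± 1.38 (SD, n = 5), a drop of 3.83 ± 0.62 (standard error) and 14.3-fold (limma, adjusted p = 0.00013). That was the 3rd largest fall of all genes tested. In KI the means were 11.12 ± 0.97 and 9.19 ± 0.45 (SD, n = 4 each), a difference of −1.93 ± 0.65 that missed the threshold (limma, adjusted p = 0.0522). The value passed under 10 of the 12 other processing settings, but in only 4 of 25 fits that each left out 1 array, with adjusted p from 0.017 to 0.15. Those 4 left out WT array 6 or KI array 19, 32 or 34. The 44-week means were 8.21 ± 0.25 in WT and 8.56 ± 1.46 in KI (SD, n = 4 each). From 5 to 44 weeks the differences were 0.84 ± 0.62 in WT (limma, adjusted p = 0.35) and −0.62 ± 0.65 in KI (limma, adjusted p = 0.55). Hbb-b2 at 44 weeks was below its level at 2 weeks in both genotypes, by −2.99 ± 0.65 in WT (limma, adjusted p = 0.0014) and −2.56 ± 0.65 in KI (limma, adjusted p = 0.0053). Without WT arrays 7, 8 and 9, the differences between 2 and 5 weeks in WT were −2.59 for Hba-a1 (limma, adjusted p = 0.028) and −2.77 for Hbb-b2 (limma, adjusted p = 0.032).

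Alas2 was dim, and was brightest in arrays of 2 weeks. There WT read 5.31, 4.42, 3.88 and 4.15 and KI read 3.55, 5.58, 4.75 and 4.80, while the 17 arrays of 5 and 44 weeks lay between 3.09 and 3.97. All but KI array 19 (3.55) and WT array 3 (3.88) of 2 weeks were above every later array. The means at 2 weeks were 4.44 ± 0.62 in WT and 4.67 ± 0.84 in KI (SD, n = 4 each). In the fit with no limit on dim genes Alas2 fell by 1.21 ± 0.29 from 2 to 5 weeks in WT (limma, adjusted p = 0.0041) and by 1.30 ± 0.31 in KI (limma, adjusted p = 0.0095). The WT difference without WT arrays 7, 8 and 9 was −1.17 and missed the threshold (limma, adjusted p = 0.091).

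**Figure D1:**
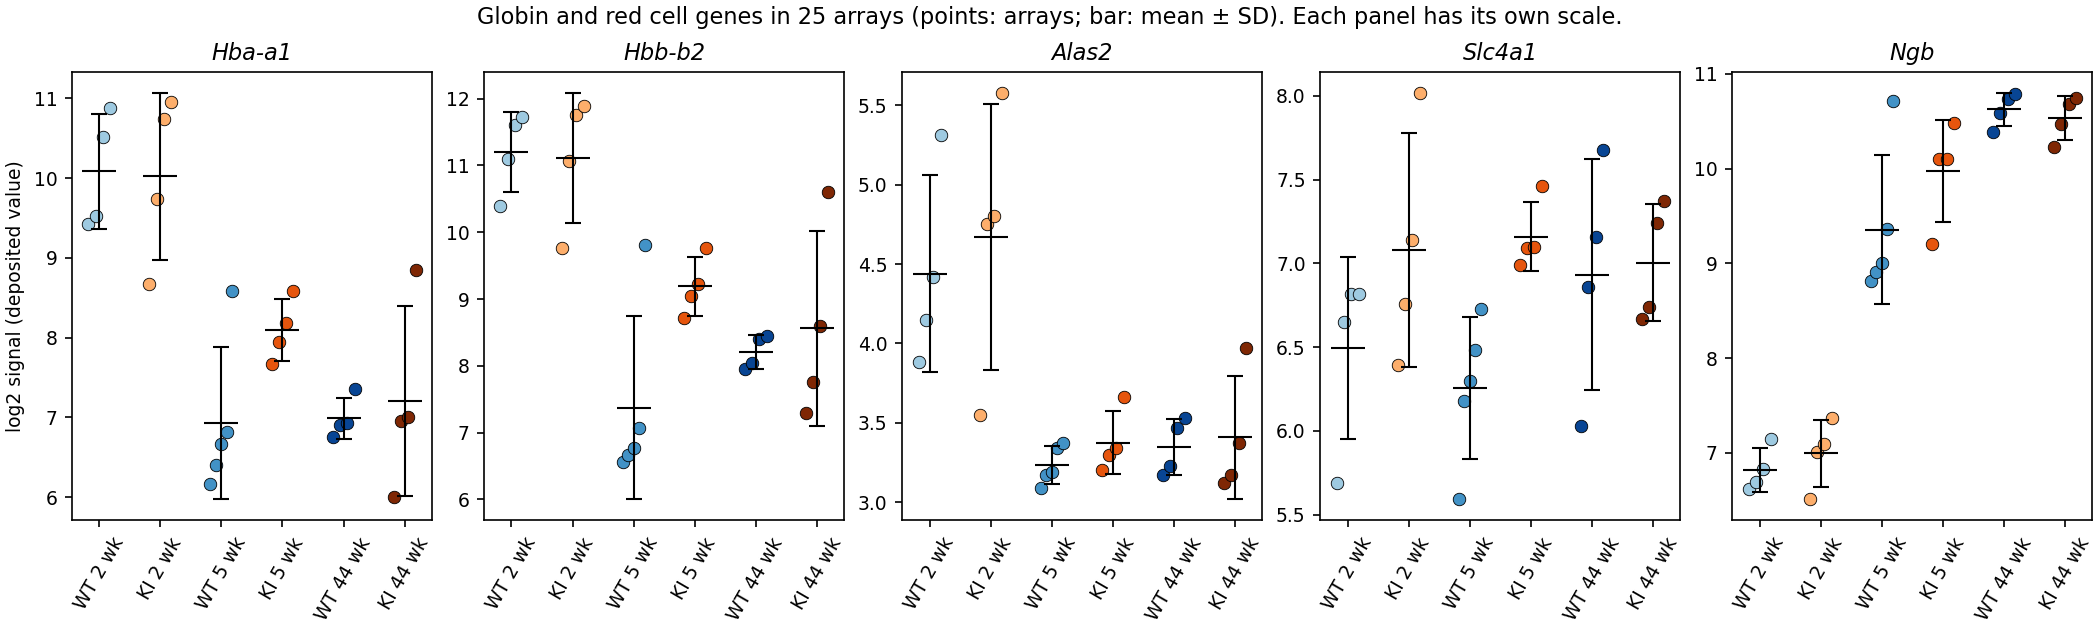
Log2 signal of the 5 genes (vertical axis, own scale in each panel) in the 6 groups of WT and KI mice at 2, 5 and 44 weeks. Points are single arrays and bars are the mean and SD: Hba-a1, Hbb-b2 and Alas2 are highest at 2 weeks, Ngb is lowest there (6.51 to 7.37), and Slc4a1 shows no such order.

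Neuroglobin ran the other way. Ngb read 7.15, 6.69, 6.62 and 6.83 in WT and 7.09, 7.01, 6.51 and 7.37 in KI at 2 weeks. At 5 weeks WT read 8.81, 8.91, 9.00, 9.36 and 10.71 and KI read 10.10, 10.10, 10.48 and 9.21. At 44 weeks all 8 arrays lay between 10.23 and 10.79. No array of 2 weeks came within 1 log2 unit of any later array.

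The Ngb means at 2, 5 and 44 weeks were 6.82 ± 0.23 (SD, n = 4), 9.36 ± 0.78 (SD, n = 5) and 10.63 ± 0.18 (SD, n = 4) in WT. In KI they were 6.99 ± 0.36, 9.97 ± 0.54 and 10.53 ± 0.23 (SD, n = 4 each). From 2 to 5 weeks Ngb rose by 2.54 ± 0.30 in WT (limma, adjusted p = 6.6e-06) and by 2.98 ± 0.31 in KI (limma, adjusted p = 1e-05). With WT arrays 7, 8 and 9 left out, the WT rise was 2.94 (limma, adjusted p = 0.00064). The rises with all arrays were the 5th and 13th largest among all genes, where 12.2% and 5.4% of genes were called higher. From 5 to 44 weeks it rose by a further 1.27 ± 0.30 in WT (limma, adjusted p = 0.0056; 20.1% of genes called), while the KI difference was 0.56 ± 0.31 (limma, adjusted p = 0.22). The genotype difference in that step was −0.71 ± 0.43 and was not called (limma, adjusted p = 0.37), but was −1.04 and called without WT array 10 of 5 weeks (limma, adjusted p = 0.029). The WT step was 0.86 and missed the threshold without WT arrays 7, 8 and 9 (limma, adjusted p = 0.17). From 2 to 44 weeks Ngb rose 14-fold in WT and 11.6-fold in KI (limma, adjusted p = 3.7e-08 and 1.6e-07), where 31.6% and 30.2% of genes were called. A second Ngb probe set showed the same order at a lower signal, from 5.36 in WT and 5.29 in KI at 2 weeks to 7.40 and 7.45 at 44 weeks.

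The 3 genes most like Ngb over the 25 arrays were Fa2h (fatty acid 2-hydroxylase; r = 0.94), BC040756 (r = 0.94) and Lrmda (r = 0.93). Within groups, where each array is set against its own group's mean, these values were 0.46, 0.34 and 0.65. The likeness over all arrays therefore lies mostly in the difference between ages, which all 3 share: Fa2h, for example, had WT means of 7.46, 8.52 and 9.27 at 2, 5 and 44 weeks.

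Other globins showed which of these courses they shared. Hba-a1 had 3 probe sets, whose means over all arrays were 8.17, 7.37 and 5.36. Their WT means fell between 2 and 5 weeks in the same order, from 10.08 to 6.93, from 9.77 to 5.79 and from 7.11 to 4.48. The second Hbb-b2 probe set went from 9.67 to 5.86, and the third was dim throughout (3.19 to 4.24). The probe set named Hba-a2, the near-identical neighbouring alpha globin gene, did not share this course. Its group means stayed between 10.60 and 10.82 and its single arrays between 10.37 and 11.05. The RefSeq promoter entries of Hba-a1 and Hba-a2, which run on past the gene's start beyond the stretch printed here, are the same in all 297 bases that overlap once shifted by 3. Several of the adult globin probe sets are of a kind that the array's naming marks as able to match more than 1 transcript (ending in s_at or x_at). Which adult chain each of them measured is therefore uncertain. The Hba-a2 probe set and the second Hbb-b2 probe set do not carry those endings, so the naming does not cover the flat course of Hba-a2. What the Hba-a2 probe set measured was not tested.

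The embryonic globin Hba-x had group means of 2.83 to 2.99, Hbb-bh1 of 3.51 to 3.80 and Hbb-y of 4.21 to 4.82. Androglobin (Adgb) stayed between 2.59 and 2.89, and myoglobin (Mb), the oxygen store of muscle, between 5.26 and 5.62. Cytoglobin (Cygb), found in fibroblasts and pericytes, had WT means of 8.96, 7.97 and 7.61 and KI means of 8.65, 8.88 and 7.48 with rising age. Of the 6 globin genes tested, 2 fell and 1 rose in WT between 2 and 5 weeks, those being Hba-a1, Hbb-b2 and Ngb, where 21.7% of all genes were called lower and 12.2% higher.

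**Figure D2:**
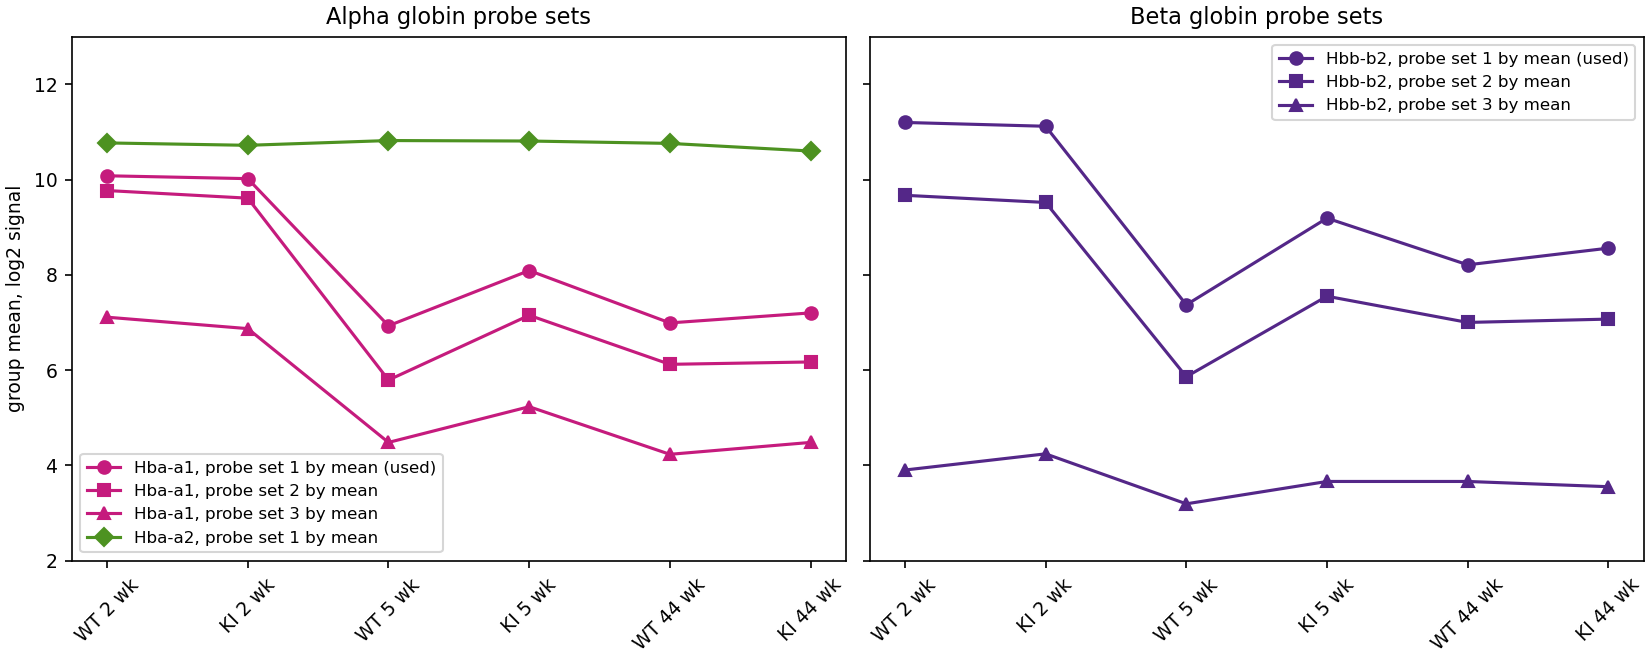
Group means of log2 signal (vertical axis) for 4 alpha globin and 3 beta globin probe sets over the 6 groups; lines only join the means of 1 probe set. The 3 Hba-a1 probe sets and the 2 brighter Hbb-b2 probe sets drop after 2 weeks, while the Hba-a2 probe set stays between 10.60 and 10.82.

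Slc4a1 did not follow the globins. Its arrays at 2 weeks read 6.82, 5.69, 6.65 and 6.82 in WT and 7.14, 6.39, 6.76 and 8.02 in KI. At 5 weeks WT read 6.73, 6.18, 6.30, 5.59 and 6.48 and KI read 7.46, 6.99, 7.09 and 7.10. At 44 weeks WT read 7.68, 6.03, 6.86 and 7.16 and KI read 6.67, 7.37, 6.74 and 7.24. No difference between ages was called in either genotype with all arrays: from 2 to 5 weeks it was −0.24 ± 0.33 in WT (95% interval −0.91 to 0.43) and 0.08 ± 0.34 in KI (−0.63 to 0.79). From 5 to 44 weeks it was 0.68 ± 0.33 in WT (95% interval 0.00 to 1.35; limma, adjusted p = 0.15) and −0.16 ± 0.34 in KI (limma, adjusted p = 0.79). The WT step was 0.98 and called without WT array 16 of 44 weeks (limma, adjusted p = 0.039), and 0.33 without WT arrays 7, 8 and 9 (limma, adjusted p = 0.69). A second Slc4a1 probe set was dim and flat, with group means of 3.88 to 4.09.

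KI arrays were higher than WT at 5 weeks for Slc4a1 and Hbb-b2. Hbb-b2 was higher in KI by 1.82 ± 0.62 (standard error), 3.52-fold (limma, adjusted p = 0.040), with 4 of 5 WT arrays below every KI array and WT array 6 above them all. Slc4a1 was higher by 0.90 ± 0.33, 1.87-fold (limma, adjusted p = 0.0497), from 6.26 ± 0.43 (SD, n = 5) in WT to 7.16 ± 0.21 (SD, n = 4) in KI, with no overlap between the groups. Of all genes 22% were called at this age, 14.3% as higher in KI, and 7.09% were higher in KI with no overlap. The size of the Hbb-b2 difference ranked 41st among the rises.

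The other 3 members missed the threshold at 5 weeks. Hba-a1 differed by 1.16 ± 0.53 (95% interval 0.07 to 2.26; limma, adjusted p = 0.11), and Ngb by 0.61 ± 0.30 (limma, adjusted p = 0.13). The Ngb difference was 0.95 and called without WT array 10 (limma, adjusted p = 0.0025). Alas2 differed by 0.14 ± 0.29 in the fit with no limit (limma, adjusted p = 0.79). Exact two-sided permutation tests over samples, 15 in number over the 5 genes and 3 ages, gave p = 0.079 for Hba-a1 and for Hbb-b2 and p = 0.016 for Slc4a1 at 5 weeks. After adjustment over the 15 these were 0.40, 0.40 and 0.24. With no overlap between its groups, Slc4a1 at p = 0.016 already had the smallest p that this permutation test can give at 5 weeks.

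Both calls changed with the arrays included. Without WT arrays 7, 8 and 9 the differences were 0.75 for Hbb-b2 (limma, adjusted p = 0.71) and 0.56 for Slc4a1 (limma, adjusted p = 0.60), and 1 gene in all was called. The differences of Hba-a1 and Ngb were 0.60 and 0.21 (limma, adjusted p = 0.75 and 0.85). Of WT at 5 weeks that fit keeps only arrays 6 and 10. Array 6 was the highest WT array of that age in both globins, and array 10 in Ngb. With array 6 alone left out, Hbb-b2 differed by 2.43. What the smaller group did to these values was not tested. Leaving out 1 array at a time gave 1.61 to 2.43 for Hbb-b2, called in 18 of 25 fits, and 0.74 to 1.02 for Slc4a1, called in 7 of 25. The Hbb-b2 call was lost without WT array 7 (1.67), 8 (1.64) or 9 (1.61) and without any of the 4 KI arrays of 5 weeks, with adjusted p from 0.0549 to 0.11. The Slc4a1 call was kept only without WT array 2, 6, 10, 15 or 16 or KI array 20 or 22. With WT array 6 left out Hba-a1 differed by 1.58 and was called (limma, adjusted p = 0.029).

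Neither of the other ages gave a call for any member. At 2 weeks the KI minus WT differences were −0.06 ± 0.55 for Hba-a1, −0.09 ± 0.65 for Hbb-b2, 0.58 ± 0.34 for Slc4a1 and 0.17 ± 0.31 for Ngb. At 44 weeks they were 0.22 ± 0.55, 0.35 ± 0.65, 0.07 ± 0.34 and −0.09 ± 0.31 in that order. Among all genes limma called 0 at 2 weeks (613 had an unadjusted p under 0.05) and 3 at 44 weeks (0.0251%, with 762 at an unadjusted p under 0.05). The 95% interval for Hbb-b2 ran from −1.44 to 1.27 at 2 weeks, and those for Hba-a1 from −1.21 to 1.09 at 2 weeks and −0.93 to 1.37 at 44 weeks, so the data leave room for differences of that size. The change of the genotype difference from 2 to 5 weeks was 1.90 ± 0.90 for Hbb-b2 (limma, adjusted p = 0.26) and 0.32 ± 0.47 for Slc4a1 (limma, adjusted p = 0.74). No member was called in any of the 3 tests of a change in the genotype difference between ages, where 0 to 3 genes in all were called (0.0251% from 2 to 5 weeks).

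**Figure D3:**
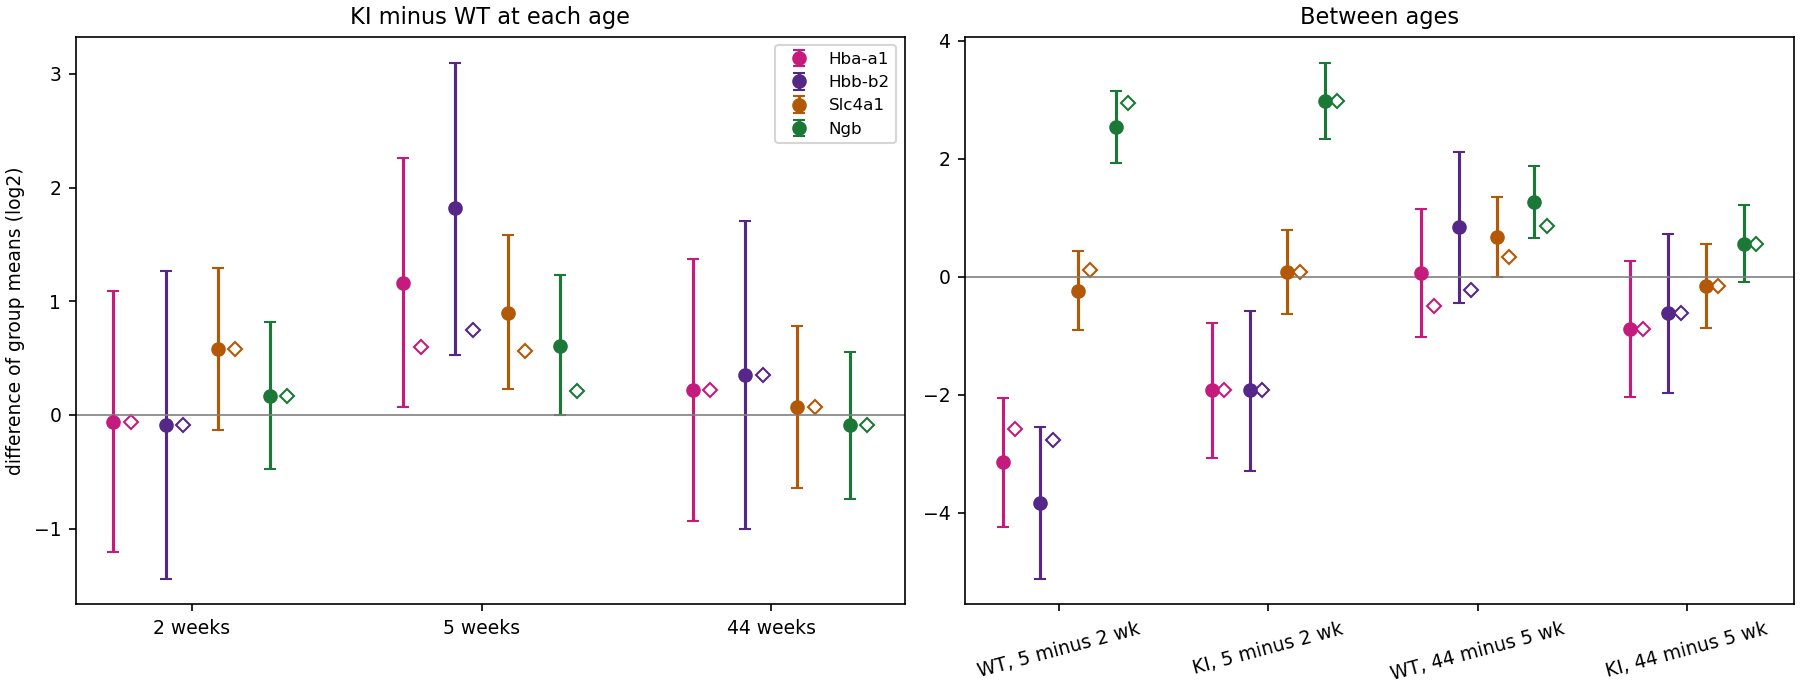
Log2 differences between group means (vertical axis) for Hba-a1, Hbb-b2, Slc4a1 and Ngb: KI minus WT at each age on the left, between ages within a genotype on the right. Filled points with bars are the limma estimate with its 95% interval, and open diamonds are the same difference without WT arrays 7, 8 and 9 of 5 weeks, where Hbb-b2 at 5 weeks goes from 1.82 to 0.75. Only WT arrays 6 and 10 of 5 weeks enter the diamonds.

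From array to array, the adult globins moved as a pair and Alas2 with them. Over all 25 arrays Hba-a1 and Hbb-b2 had r = 0.97 (rho = 0.96; permutation p = 1e-05 for each, the smallest the draws can give; adjusted over 10 pairs 2.5e-05 and 3.3e-05). Without the 2 arrays farthest from the median r was 0.96, and it was 0.96 within the 8 arrays of 2 weeks and 0.91 within the 17 arrays of 5 and 44 weeks. After each group's mean was removed r was 0.93. Permutations over all 25 arrays cross the groups, so a shared difference between ages alone can give a small p. For this pair the permutation p was 0.00012 within the arrays of 2 weeks (adjusted 0.0012) and 1e-05 within the later ones (adjusted 0.0001). Alas2 gave r = 0.90 with Hba-a1 (rho = 0.89) and 0.85 with Hbb-b2 (rho = 0.87), and 0.75 and 0.64 after group means were removed (permutation p = 1e-05 for each over all arrays, adjusted 2.5e-05). Within one group the signal could thus differ widely. KI array 32 of 44 weeks, for example, was the highest of its group in Hba-a1 (8.85), Hbb-b2 (10.60) and Alas2 (3.97), and KI array 19 of 2 weeks the lowest of its group in all 3 (8.67, 9.76 and 3.55).

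Slc4a1 showed no such relation with the globins over all arrays, with r = 0.08 for Hba-a1 (permutation p = 0.69), 0.22 for Hbb-b2 (permutation p = 0.29) and 0.03 for Alas2 (permutation p = 0.89). Within the 17 arrays of 5 and 44 weeks its r with Hbb-b2 was 0.65 (permutation p = 0.0051, adjusted 0.013), and after group means were removed from all arrays it was 0.17. Ngb separates the arrays of 2 weeks from the others, so its relations were taken within each set. With Hba-a1, Hbb-b2 and Alas2 its r lay between −0.15 and 0.27 in both, with no permutation p under 0.5. With Slc4a1 it was 0.65 at 2 weeks (permutation p = 0.072, adjusted 0.18) and 0.37 later (permutation p = 0.14).

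Slc4a1 varied with the markers of kidney tubule cells and of endothelium, and less closely with those of leukocytes. Its r with the mean of 17 intercalated cell markers was 0.86 (rho = 0.84; permutation p = 1e-05, adjusted over 35 relations 7e-05), 0.83 without the 2 farthest arrays and 0.84 after group means were removed. It was 0.92 within the arrays of 2 weeks (permutation p = 0.0016, adjusted 0.028) and 0.86 within the later ones (permutation p = 2e-05, adjusted 0.0007). With the loop, distal tubule and collecting duct markers r was 0.83, with endothelium 0.80, with proximal tubule 0.78 and with leukocytes 0.61. After group means were removed these were 0.82, 0.71, 0.68 and 0.48 in that order. Mesangium and smooth muscle gave 0.41 and podocytes −0.27 over all arrays. The same intercalated list gave −0.14 with Hba-a1 and 0.03 with Hbb-b2 over all arrays. Within the later arrays the values were 0.36 for Hba-a1 (permutation p = 0.16) and 0.61 for Hbb-b2 (permutation p = 0.0087, adjusted 0.033). After group means were removed they were −0.03 and 0.14. The 3 genes most like Slc4a1 were Scnn1a and Fxyd4, which belong to sodium transport in the collecting duct, and Shroom4, an actin-binding protein (r = 0.86 each).

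The intercalated markers were among several cell lists with genes higher in KI at 5 weeks. Their mean ran from 5.47 to 6.01 over the WT arrays and from 6.22 to 6.47 over the KI arrays, and 6 of the 13 tested were higher in KI and 0 lower, against 14.3% of all genes called higher. Other cells' markers were higher in KI too, with 0 lower: 7 of 15 for endothelium, 5 of 15 for loop, distal tubule and collecting duct, 4 of 11 for mesangium and smooth muscle, 4 of 11 for leukocytes and 3 of 12 for proximal tubule. The podocyte markers went the other way, with 1 of 15 higher and 4 lower (median −0.21), against 7.75% of all genes called lower. In each of these lists 0 genes were called by limma without WT arrays 7, 8 and 9. Among the intercalated markers, Rhbg, an ammonium transporter, was higher by 1.17 ± 0.25, Car15, a carbonic anhydrase, by 1.23 ± 0.28, Insrr, an alkali-sensing receptor, by 0.78 ± 0.19, and Atp6v1b1, a subunit of the proton pump, by 1.60 ± 0.42 (limma, adjusted p from 0.0048 to 0.013). The median difference of the 13 was 0.67, and 0.35 without those arrays. With the mean of the tubule markers as a covariate, the KI minus WT difference of Slc4a1 at 5 weeks was −0.10 (limma, adjusted p = 0.91) and that of Hbb-b2 was 1.57 (limma, adjusted p = 0.40). Whether Slc4a1 signal came from such cells was not tested.

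**Figure D4:**
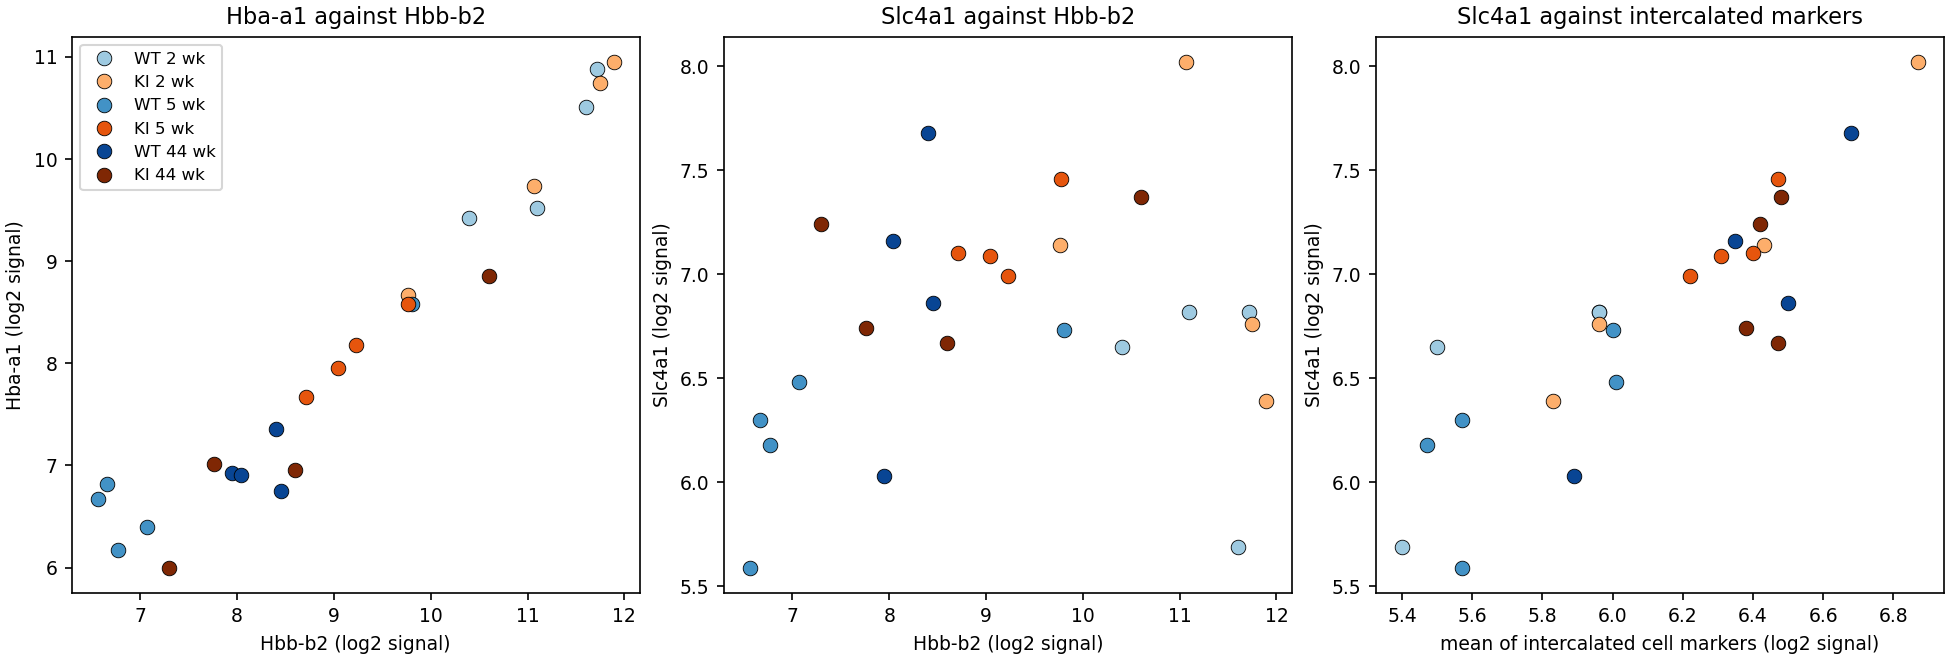
Each point is 1 of 25 arrays, coloured by group, with log2 signal on both axes. Hba-a1 rises with Hbb-b2 along a narrow band (left, r = 0.97), Slc4a1 does not follow Hbb-b2 (middle, r = 0.22), and Slc4a1 follows the mean of 17 intercalated cell markers (right, r = 0.86).

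Other red cell markers were mostly at the dim end. Of 17 listed, 11 had a named probe set and 4 passed the limit: Hba-a1, Hbb-b2, Hba-a2 and Klf1. The group means of the membrane genes Epb42, Rhag and Kel stayed between 2.47 and 3.50, those of Car1 between 3.34 and 3.47 and those of Gata1 between 3.37 and 3.92. The mean of the 8 listed genes that are no members ran over arrays from 4.37 to 4.51 in WT and 4.38 to 4.50 in KI at 2 weeks. It ran from 4.27 to 4.42 and 4.31 to 4.44 at 5 weeks, and from 4.23 to 4.39 and 4.29 to 4.35 at 44 weeks. The 8 include Klf1 and the flat Hba-a2 probe set, whose mean of 10.75 raises this level. Klf1, the erythroid Kruppel-like factor, fell by 0.98 ± 0.16 in WT and 0.88 ± 0.17 in KI between 2 and 5 weeks (limma, adjusted p = 0.00017 and 0.0020). Its means then went up by 44 weeks, from 4.64 to 5.12 in WT and from 4.96 to 5.32 in KI. The WT rise was called, where 20.1% of all genes were called, and the KI rise was not. Without WT arrays 7, 8 and 9 the WT rise was not called either. Klf1 is named here after its values were seen.

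The gene most like both adult globins after each other was Hif3a, a hypoxia-inducible factor subunit (r = 0.91 with Hba-a1 and 0.89 with Hbb-b2). Its WT means were 8.04, 6.36 and 6.44 at 2, 5 and 44 weeks. Tent5a came next for Hbb-b2 (r = 0.88). Signals of other cells moved with the globins across ages as well. The mean of 11 mesangium and smooth muscle markers gave r = 0.75 with Hba-a1 and 0.74 with Hbb-b2, and 8 of those 11 fell in WT between 2 and 5 weeks, against 21.7% of all genes. Of 15 podocyte markers 11 rose and 1 fell, against 12.2% of all genes called higher. With WT arrays 7, 8 and 9 left out, these counts were 3 of 11 and 0 of 15. After group means were removed the mesangial r was 0.32 and 0.35. In polysomal RNA pulled from whole tissue, fewer cells of a type and less RNA per cell cannot be told apart, and the part of red cells left in the tissue was not tested.

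The wider red cell pathways were compared at 5 weeks by counting genes that passed, against 14.3% called higher and 7.75% lower among all genes and a median difference of 0.06. Of 12 heme synthesis genes tested 6 were higher in KI and 0 lower, with a median of 0.35. They include Slc25a28, a mitochondrial iron importer (0.78 ± 0.16), Urod (0.57 ± 0.14) and Alad (0.75 ± 0.20), both enzymes of the pathway, and Alas1, the form of the first enzyme used outside red cells (0.75 ± 0.20; limma, adjusted p from 0.0042 to 0.014 for the 4). Of 13 red cell membrane genes 4 were higher and 0 lower: Piezo1, a stretch-gated channel (1.01 ± 0.26), Sptb, beta spectrin (0.51 ± 0.14), Dmtn, dematin (0.94 ± 0.28), and Slc4a1. Many of these genes are also used outside red cells.

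Of 20 genes of iron and heme handling 3 were higher and 0 lower: Blvrb, a biliverdin reductase (1.20 ± 0.21), Ftl1, ferritin light chain (0.43 ± 0.12), and Slc48a1, a heme transporter (0.49 ± 0.15). Of 9 erythroid transcription genes 3 were higher (Ldb1 by 0.56 ± 0.17, Stat5b by 0.33 ± 0.11 and Zfpm1 by 0.54 ± 0.19) and 1 was lower (Tcf3, −0.54 ± 0.16). Of 11 reticulocyte proteins 2 were higher (Prdx2 by 0.26 ± 0.08 and Ube2o by 0.54 ± 0.18) and 2 lower (Bpgm, −0.32 ± 0.11, and Bnip3l, −0.30 ± 0.11). In none of these lists was any gene called at 2 or 44 weeks. Without WT arrays 7, 8 and 9, limma called no gene of these 5 lists at 5 weeks, and their medians lay between −0.08 and 0.30.

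The same lists were counted between 2 and 5 weeks in WT, where 21.7% of all genes were called lower and 12.2% higher. Of heme synthesis 6 of 12 fell and 0 rose (median −0.39), of red cell membrane 5 of 13 and 0 (median −0.24), and of reticulocyte proteins 4 of 11 and 0 (median −0.28). Of iron and heme handling 5 of 20 fell and 1 rose, and of erythroid transcription 2 of 9 fell, shares near that of all genes. The median over all genes was −0.06. In KI the falls were 1 of 12, 2 of 13, 3 of 11, 4 of 20 and 2 of 9 in the same order, against 8.29% of all genes. The KI minus WT comparison at 5 weeks and this comparison share the WT arrays of 5 weeks. With WT arrays 7, 8 and 9 left out, the falls in WT were 1 of 12 for heme synthesis, 2 of 13 for red cell membrane, 1 of 11 for reticulocyte proteins, 0 of 20 for iron and heme handling and 1 of 9 for erythroid transcription, and 998 genes in all were called in either direction.

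**Figure D5:**
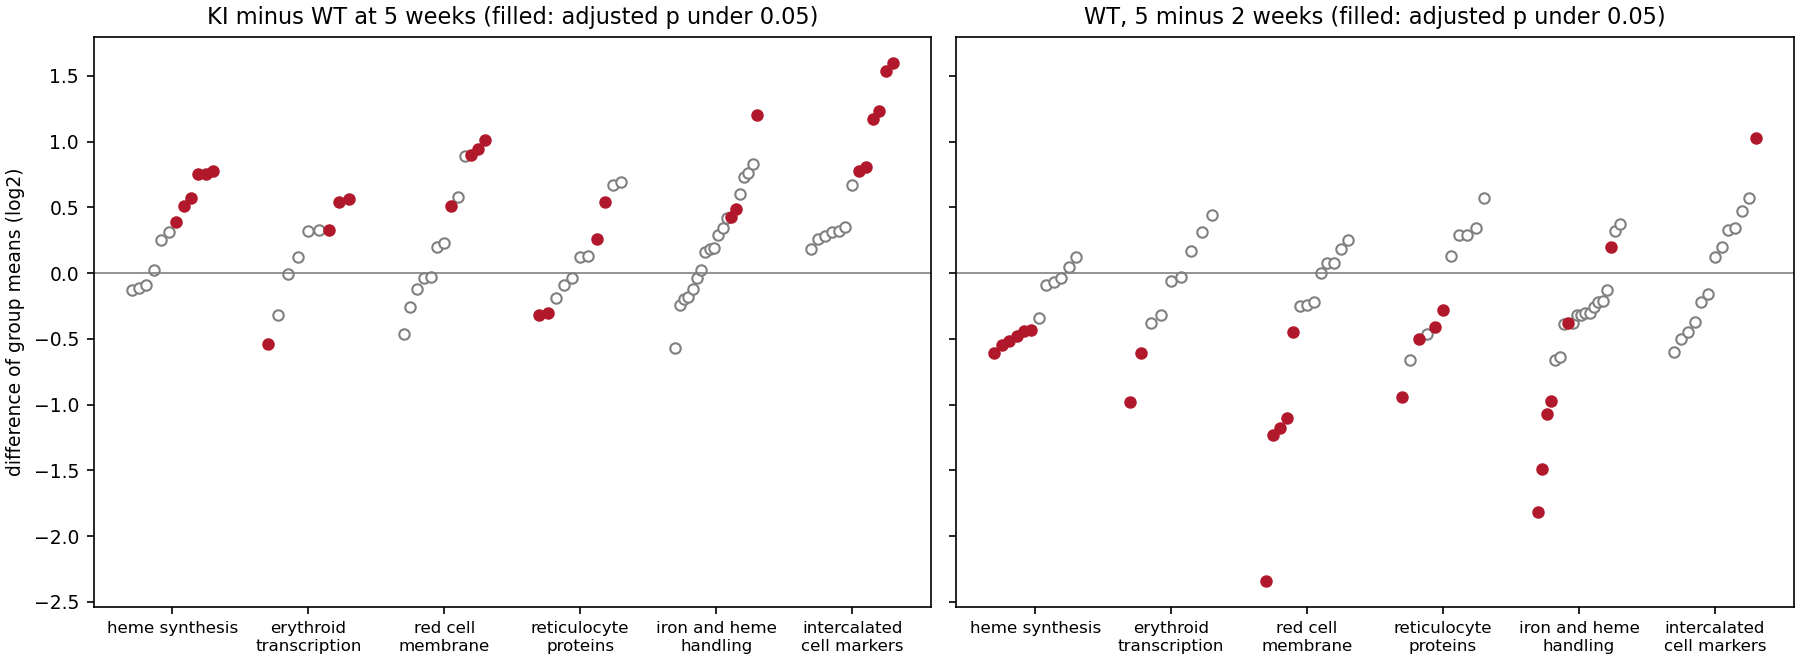
Log2 differences between group means (vertical axis) for each tested gene of 5 red cell lists and of the intercalated cell markers, KI minus WT at 5 weeks on the left and WT at 5 minus 2 weeks on the right. Filled points passed an adjusted p of 0.05: 6 of 12 heme synthesis genes were higher in KI on the left, and 6 of 12 were lower at 5 weeks on the right.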

How the data were processed

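Polysomal RNA was amplified with 1 round of NuGEN WT-Ovation and labelled with the Encore Biotin Module, per the labels' protocols, and hybridised to a perfect-match Affymetrix mouse array. The deposited table holds log2 signals of 45141 probe sets on 25 arrays. The summarization and normalization are not given in the sources used here. Array medians lay between 4.82 and 4.99. Precision is limited by how many arrays a group has.

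Of the probe sets 28898 had 1 gene symbol, 551 several and 15588 were not in the annotation used, besides 104 controls. Symbols were updated through Entrez identifiers (99.3% found). Each gene was represented by its brightest probe set, and the lowest 30% of genes were left out. Differences were fitted over 6 group means with limma 3.58.1 in R 4.3.3 (19 residual and 3.05 prior degrees of freedom), with a gene called at a Benjamini-Hochberg adjusted p under 0.05 over 11968 genes. Correlations used 100000 permutations, and their relations with marker lists were chosen after the data were seen. On simulated data over 11968 genes, 79% of 2-fold changes were recovered for KI against WT at 5 weeks. For WT at 5 against 2 weeks the share was 85%. The median standard error of KI minus WT at 5 weeks was 0.17. The members had larger ones: 0.53 for Hba-a1, 0.62 for Hbb-b2, 0.33 for Slc4a1 and 0.30 for Ngb. Recovery at the standard errors of these members was not tested.

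The members and lists were chosen with earlier results of these data known. The text names the 5 members, every measured globin, from each pathway and the intercalated list up to 4 genes called between genotypes (by p at 5 weeks), and the 3 genes most like each member. Marker genes named otherwise were chosen after their values were seen. Alternatives were 2 other scalings, 2 other filters, the mean of a gene's probe sets, another prior, array weights, only the arrays compared, 3 covariates, and arrays left out. The covariates were the mean of the tubule markers, the mean of the leukocyte markers and a sex class. That class is inferred and not recorded: the arrays were split at the largest gap in the mean of 3 Y chromosome genes, a rule that always gives a split.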

Additional observations from a re-analysis of the deposited data

Results flagged for a closer look

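In 4 of the 30 combinations of gene and group, 1 array stood apart from the rest of its group by Dixon's test at the 95% level, which by chance marks about 1 in 20. Array 6 of WT at 5 weeks was the highest in Hba-a1 (8.58, next 6.82) and in Hbb-b2 (9.81, next 7.07). Array 2 of WT at 2 weeks was the lowest in Slc4a1 (5.69, next 6.65). Array 10 of WT at 5 weeks was the highest in Ngb (10.71, next 9.36). The first pair are not independent of each other, since both globins moved together over the arrays.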

How the results depend on the processing

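No paired analysis was possible because the groups share no replicate numbers. The falls of Hba-a1 and Hbb-b2 and the rise of Ngb from 2 to 5 weeks in WT kept their direction and their call under all 12 alternatives and all 25 fits without 1 array. Of 420 alternative values for the comparisons of genotypes and of neighbouring ages, 367 kept direction and side of the threshold, 17 lost it, 12 gained it and 24 changed sign. Of those 24, only the KI minus WT difference of Slc4a1 at 5 weeks had been called. Unless stated, the cause of a change was not tested.

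For KI minus WT at 5 weeks, Hbb-b2 missed the threshold with no filter (1.82, limma adjusted p = 0.053), only the arrays compared (1.82, 0.086), the tubule (1.57, 0.40), leukocyte (1.51, 0.24) or sex (1.48, 0.076) covariate, and without WT arrays 7, 8 and 9 (0.75, 0.71). Slc4a1 missed it with quantile scaling (0.81, 0.073), median centring (0.84, 0.057), no filter (0.90, 0.065), the mean of all probe sets (0.37, 0.15), the leukocyte (0.46, 0.47), sex (0.87, 0.076) or tubule (−0.10, 0.91) covariate, and without WT arrays 7, 8 and 9 (0.56, 0.60). Ngb passed with array weights (0.72, 0.016). The fall of Hbb-b2 from 2 to 5 weeks in KI passed with median centring (−1.94), a 50% filter, a trended prior, only the arrays compared or without WT arrays 7, 8 and 9 (−1.93 each), the mean of probe sets (−1.49), array weights (−1.76), and the tubule (−1.99), leukocyte (−2.12) or sex (−2.42) covariate, with adjusted p from 0.013 to 0.0491. The rise of Ngb from 5 to 44 weeks in WT missed it with the tubule covariate (1.00), only the arrays compared (1.27) or without WT arrays 7, 8 and 9 (0.86), and Slc4a1 passed there with array weights (0.81). Alas2 in WT from 2 to 5 weeks missed it without WT arrays 7, 8 and 9 (−1.17).

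Values that changed sign without being called were, for KI minus WT at 2 weeks, Hba-a1 with array weights (0.22) and the sex covariate (0.69), Hbb-b2 with the mean of probe sets (0.03) and the sex covariate (0.65), Slc4a1 with the tubule covariate (−0.18), and Ngb with the tubule (−0.06) and sex (−0.11) covariates. At 44 weeks they were Hba-a1 (−0.28), Hbb-b2 (−0.13), Alas2 (−0.12) and Ngb (0.10) with the sex covariate, and Slc4a1 with the tubule (−0.23) and leukocyte (−0.11) covariates. Over the ages together Slc4a1 gave −0.17 with the tubule covariate. From 5 to 44 weeks in WT, Hba-a1 changed sign with quantile scaling (−0.10), median centring (−0.04), the leukocyte covariate (−0.05) and without WT arrays 7, 8 and 9 (−0.50), Hbb-b2 without those arrays (−0.23), and Slc4a1 with the tubule covariate (−0.21). Slc4a1 also did from 2 to 44 weeks in WT with the tubule (−0.44) and leukocyte (−0.08) covariates, from 2 to 5 weeks in WT without WT arrays 7, 8 and 9 (0.11), from 2 to 5 weeks in KI with the tubule (−0.14) and leukocyte (−0.19) covariates, and in KI at 44 against 5 (0.01) and 2 weeks (0.02) with the mean of probe sets. The change of the genotype difference did so for Slc4a1 from 2 to 5 weeks without WT arrays 7, 8 and 9 (−0.02), for Alas2 from 5 to 44 weeks with median centring (0.01), and from 2 to 44 weeks with the sex covariate for Hba-a1 (−0.97), Hbb-b2 (−0.78) and Ngb (0.21). Without WT arrays 7, 8 and 9 the r of Slc4a1 was −0.14 with Hba-a1, −0.09 with Hbb-b2 and −0.12 with Alas2.

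Leaving out 1 array at a time gave, for KI minus WT at 2 weeks, −0.37 to 0.39 for Hba-a1, −0.35 to 0.37 for Hbb-b2 and −0.07 to 0.60 for Alas2. At 5 weeks it gave 0.97 to 1.58 for Hba-a1, 1.61 to 2.43 for Hbb-b2, 0.74 to 1.02 for Slc4a1 and 0.45 to 0.95 for Ngb, the last called only without WT array 10 (limma, adjusted p = 0.0025). At 44 weeks it gave −0.33 to 0.62 for Hba-a1, −0.32 to 0.77 for Hbb-b2, −0.23 to 0.32 for Slc4a1, −0.13 to 0.15 for Alas2 and −0.17 to 0.01 for Ngb. In WT from 5 to 44 weeks the range was −0.13 to 0.47 for Hba-a1 and 0.43 to 0.98 for Slc4a1. In KI from 2 to 5 weeks it was −2.38 to −1.62 for Hba-a1, −2.38 to −1.67 for Hbb-b2 and −0.15 to 0.40 for Slc4a1, from 2 to 44 weeks −0.30 to 0.24 for Slc4a1, and from 5 to 44 weeks −0.16 to 0.13 for Alas2. The change of the genotype difference from 2 to 44 weeks ranged over −0.27 to 0.68 for Hba-a1, −0.24 to 0.86 for Hbb-b2 and −0.55 to 0.13 for Alas2, and for Alas2 over −0.46 to 0.21 from 2 to 5 weeks and −0.27 to 0.01 from 5 to 44 weeks.

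The count of all genes called for KI against WT at 5 weeks, 2638, became 4821 with array weights, 499 with only the arrays compared, 350 with the leukocyte covariate, 19 with the tubule covariate, 1 without WT arrays 7, 8 and 9, and 1387 to 4078 without 1 array. For WT from 2 to 5 weeks, 4053 became 6092 with array weights, 2235 with only the arrays compared and 998 without WT arrays 7, 8 and 9. For WT from 5 to 44 weeks, 2408 became 3762 with array weights and 592 to 1092 with only the arrays compared, either covariate of other cells or without those arrays. With array weights the KI counts went from 1638 to 3176 and from 2005 to 3478.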
